A study of Mus musculus with 24 samples.

Results

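The entorhinal cortex of mice whose Nop-tTA-positive neurons had been silenced for 3 days was compared with that of vehicle mice, gene by gene, in bulk RNA sequencing. The comparison took the 6 libraries whose treatment label is 3DPI and the 6 labelled Veh, 12 of the 24 libraries of the series, and covered every gene with enough reads to test. All of the mice, vehicle mice included, were labelled transgenic for both the Nop-tTA driver (Line S) and the TRE-GlyCl-YFP responder (Line 9531), each a single transgenic line, and were adults of 2 to 4 months. The vehicle libraries came from 4 females and 2 males and the day 3 libraries from 3 females and 3 males. The labels give neither the agent and dose that activated the channel nor the day on which vehicle tissue was collected. The Nop promoter, that of the neuropsin gene Klk8, drives the transgene in a subset of entorhinal neurons, so that not every cell of the dissected tissue carries the channel. Each library carries an animal number of its own, but the labels do not say in words that each is a separate animal, and p-values otherwise measure only the spread between these libraries.

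GlyCl is an engineered chloride channel made from a glycine receptor alpha subunit, and ivermectin opens it. An open channel shunts excitatory current, so that a neuron carrying it stops firing. Microglia, the resident macrophages of the brain, watch neurons through purine, fractalkine and complement receptors. When neurons are injured they divide, secrete chemokines and switch on the TREM2-linked programme of lipid handling and lysosomal genes. Astrocytes answer injury by building intermediate filaments of GFAP. Type I interferon acts on many cell types through STAT and IRF factors, which bind the interferon-stimulated response element (ISRE) in the promoters of antiviral genes.

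Depth did not differ detectably between the groups. Total counts averaged 19.5 ± 2.06 M reads in vehicle and 19.5 ± 1.52 M at day 3 (SD, n = 6 per group; exact permutation test, two-sided, p = 0.961). Pan-neuronal genes, 12 of 12 of which were measured, summed to between 8675 and 9205 CPM (counts per 1 M reads of the normalized library total) in vehicle and to between 8477 and 8891 at day 3. Reln and Calb1, which mark entorhinal neurons of the superficial layers, stood at medians of 127 and 164 CPM in vehicle and 128 and 161 CPM at day 3, and neither passed the test. Choroid plexus RNA differed between libraries. Ttr, its main transcript, was at 1165 CPM in vehicle library 5, and day 3 libraries 2, 3 and 6 were also rich in it, while the other vehicle libraries held at most 19.02 CPM.

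Of 16767 genes tested, 101 rose at day 3 (0.602%) and 2 fell (0.0119%) at an adjusted p under 0.05 (edgeR quasi-likelihood test with Benjamini-Hochberg adjustment, on which all adjusted p-values below rest). Those that fell were EYFP, the reporter of the transgene, and Glra1, a glycine receptor subunit gene. The fit held all 24 libraries, those of days 1 and 2 adding to the estimate of the spread. On the 12 libraries alone, 82 of the 98 called genes that could be fitted stayed called. The rises were mostly moderate. There were 43 genes that rose more than 2-fold, 36 that rose between 1.5-fold and 2-fold, and 22 that rose by 1.5-fold or less, with a median of 1.84-fold. The median log2 fold change of all genes tested was -0.0016. Of the 101 genes, 27 averaged less than 1 CPM in vehicle, and 62 belonged to at least one of the gene lists used here. All 6 day 3 libraries lay above all 6 vehicle libraries for 66 of them. Over all genes tested, 97 had day 3 libraries wholly above (0.579%) and 14 wholly below (0.0835%). At an unadjusted p under 0.05, 601 genes were higher (3.58%) and 345 lower (2.06%).

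The number of calls fell when the libraries rich in choroid plexus RNA were left out, for a reason that was not tested. Without the 8 of 24 libraries above 100 CPM of Ttr, an alternative chosen after the data were seen that also leaves fewer libraries, 47 genes were higher and 2 lower. The sizes of the changes moved less: the 101 genes had a median log2 fold change of 0.86 against 0.88, a description, as the genes were chosen with these libraries in the fit. All 13 choroid plexus markers had log2 fold changes above 0 (median 1.12) and none was called, though 12 were when the filter on low counts was removed. The groups overlapped for all 13. Calls made only without that filter are not relied on, here or below. Their summed level ran from 146 to 1933 CPM in vehicle (median 193) and from 169 to 1809 CPM at day 3 (median 590). Without day 3 library 1, 70 genes were higher, the lowest count when any 1 of the 12 libraries was left out.

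**Figure D1:**
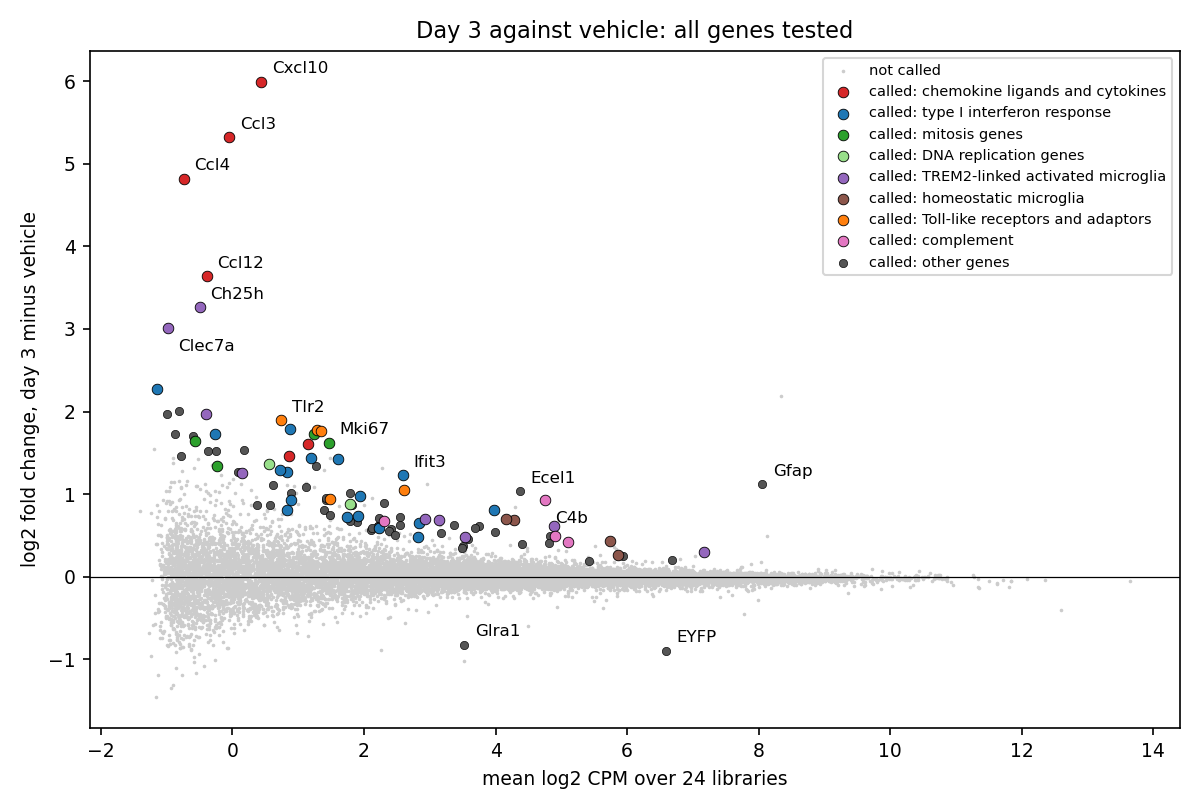
Log2 fold change of day 3 minus vehicle (vertical axis) against mean log2 CPM over 24 libraries (horizontal axis) for the 16767 genes tested. Grey points were not called and coloured points were called, by gene list. The 101 called rises lie above 0, with the chemokine genes at the top, and EYFP and Glra1 are the 2 called genes below 0.

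The transgene reporter fell. EYFP was at 94.3 CPM in the lowest vehicle library, 108 at the median and 139 in the highest. At day 3 its lowest, median and highest levels were 50.9, 62.2 and 77.4 CPM. Every day 3 library was below every vehicle library, and the log2 fold change was -0.89 ± 0.11 (SE, n = 6 per group; edgeR adjusted p = 1.19e-05; exact permutation test of the CPM, two-sided, p = 0.00216, the smallest that 6 against 6 libraries can give). Glra1 (ENSMUSG00000000263.16) ranged from 9.78 to 16.3 CPM in vehicle (median 13.2) and from 5.90 to 9.56 CPM at day 3 (median 7.66), a log2 fold change of -0.83 ± 0.13 (edgeR adjusted p = 0.000636). The groups did not overlap for this gene either. Because GlyCl derives from a glycine receptor subunit, reads of the transgene and of mouse Glra1 cannot be told apart in a table of gene counts. In bulk tissue, fewer cells of a type and less RNA per cell cannot be told apart for this or any other gene here. Klk8, whose promoter drives the system, was low throughout, between 1.19 and 2.77 CPM in vehicle and between 1.33 and 2.58 CPM at day 3, and did not pass (log2 fold change -0.08 ± 0.20).

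Chemokines gave the largest fold changes in the tissue. Of 17 chemokine and cytokine genes measured, 6 rose, none fell and 11 did not pass, with a list median of 0.33. The read filter can be passed through the day 3 group alone, so genes near 0 in vehicle could enter by being high at day 3. Low genes that did not rise drop out, which favours the share called and the median in advance. The same holds for low members of the other lists. Cxcl10 (ENSMUSG00000034855.14), an interferon-induced attractant of T cells, had at most 0.113 CPM in any vehicle library, 7 reads in all, and no read in the lowest. At day 3 it held 2.10 CPM in the lowest library, 4.72 at the median and 5.70 in the highest, 508 reads in all. The log2 fold change was 6.0 ± 0.56 (edgeR adjusted p = 5.90e-08), with the day 3 libraries all far above the vehicle libraries. Since such low vehicle counts enter the fit with a prior, the size of the ratio is less certain than its direction.

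Ccl3 (ENSMUSG00000000982.6) and Ccl4, attractants of myeloid cells and lymphocytes, had 6 and 5 reads in the vehicle group and 255 and 156 in the day 3 group. The log2 fold changes were 5.32 ± 0.47 for Ccl3 and 4.82 ± 0.45 for Ccl4 (edgeR adjusted p = 4.34e-08 and 5.90e-08). Ccl12, a ligand of CCR2, went from a median of 0.185 CPM in vehicle to 2.07 CPM at day 3. Its log2 fold change was 3.64 ± 0.42 (edgeR adjusted p = 4.23e-06). Ccl6 and Ccl9, related chemokines of myeloid cells, rose by 1.61 ± 0.20 and 1.46 ± 0.19 on the log2 scale. In all 6 chemokine genes the lowest day 3 library exceeded the highest vehicle library. Mouse chemokine genes have close relatives, and reads could be split between copies. The 6 calls held without the Ttr-rich libraries and without any 1 library.

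Other secreted signals were flat or did not pass. Il1a, an interleukin of microglia, had a log2 fold change of 1.43, Cxcl16 0.82, Spp1 0.33 and Tgfb1 0.31, none of them called. The neuronal and stromal ligands Cx3cl1 (-0.07), Cxcl12 (0.09), Il34 (-0.02) and Il33 (-0.04) lay near 0. Ccl2, Ccl5, Cxcl9, Il1b, Il6 and Tnf did not reach the read minimum for testing. On the receptor side 1 of 18 genes rose, Cx3cr1, the fractalkine receptor of microglia. It was at 51.02 to 60.1 CPM in vehicle (median 52.5) and 52.5 to 72.6 CPM at day 3 (median 64.1), so that the groups overlapped. Its log2 fold change was 0.26 ± 0.06 (edgeR adjusted p = 0.0412). The call ended when any of vehicle libraries 3, 4, 5 or 6 or day 3 libraries 1, 2, 3, 5 or 6 was left out (highest adjusted p = 0.223) and without the Ttr-rich libraries (adjusted p = 0.761). Without vehicle library 1 or 2, 2 receptor genes were called. Ifnar1 (0.06), Ifnar2 (0.13) and Csf1r (0.18) were not called.

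**Figure D2:**
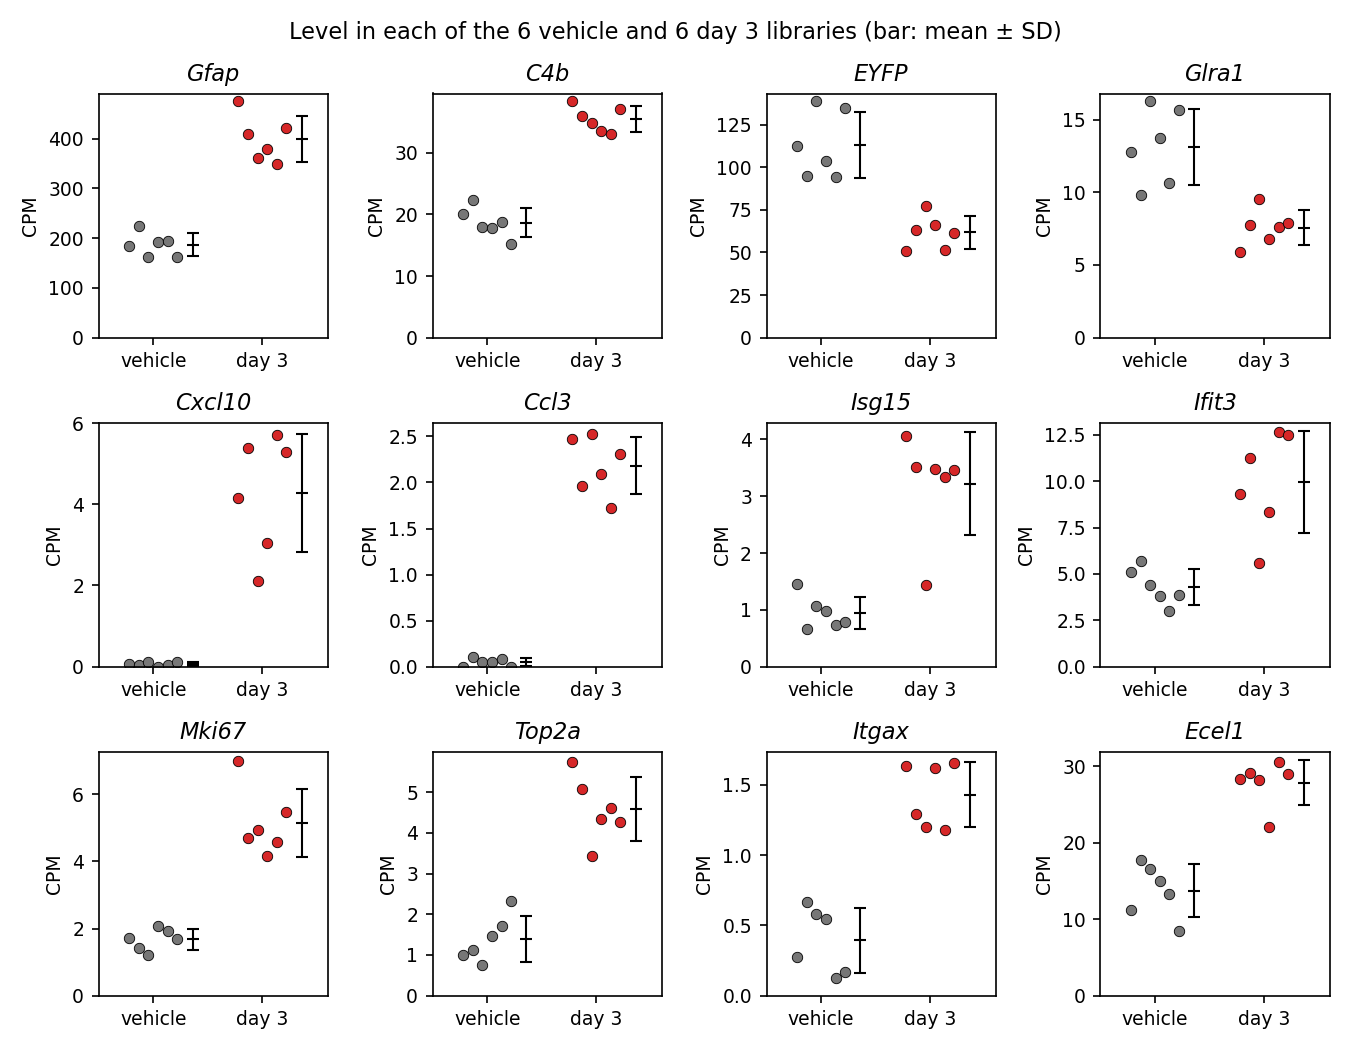
CPM (vertical axes, from 0) of 12 genes in each of the 6 vehicle libraries (grey) and 6 day 3 libraries (red), with the mean and SD as bars. Cxcl10 and Ccl3 are near 0 in every vehicle library, Gfap, C4b, Mki67, Top2a, Itgax and Ecel1 are wholly higher at day 3, EYFP and Glra1 are wholly lower, and the groups overlap for Isg15 and Ifit3.

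Interferon-induced genes made up the largest group of rises by number among the lists, their list also being the longest. By share, 43.59% of its measured genes rose, against 45.45% of the TREM2-linked list and 35.29% of the chemokine and cytokine list. Of 39 type I interferon response genes measured, 17 rose, none fell and 22 did not pass, and all 39 log2 fold changes were above 0 (median 0.72). Promoter stretches that hold an ISRE core are shown first for 5 of the 17 and for Cxcl10, as background on the element their regulators bind. The stretches are RefSeq promoters on GRCm38.p6, written 5′ to 3′ on the strand of the gene. The core searched for was GAAA repeated after a gap of 2 free bases, on either strand. Capitals mark its matches, overlapping ones being merged.

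Isg15: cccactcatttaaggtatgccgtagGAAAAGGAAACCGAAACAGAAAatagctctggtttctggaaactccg
Ifit1: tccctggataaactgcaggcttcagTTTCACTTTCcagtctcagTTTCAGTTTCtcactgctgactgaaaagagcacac
Ifit3: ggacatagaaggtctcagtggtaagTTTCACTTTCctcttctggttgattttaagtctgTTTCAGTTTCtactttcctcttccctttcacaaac
Irgm1: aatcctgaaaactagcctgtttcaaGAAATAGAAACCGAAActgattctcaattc
Gbp3: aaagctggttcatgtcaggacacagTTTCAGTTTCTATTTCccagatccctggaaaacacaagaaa
Cxcl10: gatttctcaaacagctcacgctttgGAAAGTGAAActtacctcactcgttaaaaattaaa

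These lie at chr4:156200850-156200921 (Isg15, minus strand), chr19:34640760-34640838 (Ifit1, plus), chr19:34583348-34583441 (Ifit3, plus), chr11:48871421-48871475 (Irgm1, minus), chr3:142559974-142560039 (Gbp3, plus) and chr5:92349068-92349127 (Cxcl10, minus). The matches end 57, 76, 113, 15, 30 and 204 bases before the annotated start in that order. The stretch of Ifit3b is identical to that of Ifit3. Both lie before the start, and whether reads of the pair were split in counting was not tested. In windows from 250 bases before to 50 after the start, the core occurred in 3.63% of 12082 tested genes with a window and in 13 of 79 genes that rose and had one (16.5%). It was present in 9 of the 12 called interferon genes with a window (75.0%). The list was made of known interferon genes, so a high share there was to be expected beforehand and supports nothing. These 9 genes are among the 13. An NF-kB core, GGGA and TTCC around 2 free bases on either strand, occurred in 1.65% of tested genes and in 1 of the 79, Cxcl10 (1.27%). E2F cores, TTTCCCGC or TTTGGCGC on either strand, occurred in 3.15% of tested genes and in 2 of the 79, Mcm3 and Trem2 (2.53%). A match is a description of these letters and does not show that a factor was bound.

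Among the effectors, Isg15 (ENSMUSG00000035692.8), a ubiquitin-like protein attached to viral and host targets, was at 0.666 CPM in the lowest vehicle library, 0.887 at the median and 1.45 in the highest. At day 3 the lowest library held 1.44 CPM, the median was 3.47 and the highest 4.06. Only day 3 library 3 reached into the vehicle range. The log2 fold change was 1.79 ± 0.24 (edgeR adjusted p = 2.73e-05), and Usp18, the protease that removes Isg15, had 1.73 ± 0.33 (adjusted p = 0.00427). Ifit1, which binds viral RNA ends, went from a median of 1.48 to 4.17 CPM without overlap (log2 fold change 1.44 ± 0.21, edgeR adjusted p = 0.000188). Ifit3, its partner, went from 4.12 to 10.3 CPM, with overlapping groups (1.23 ± 0.19, adjusted p = 0.000286).

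Mx1, a dynamin-like antiviral GTPase, rose by 2.28 ± 0.48, Oasl2, a relative of the oligoadenylate synthetases, by 1.43 ± 0.23, and Rsad2, the antiviral enzyme viperin, by 1.26 ± 0.21. Lgals3bp, a secreted glycoprotein, was the most highly expressed of those named here, with a median of 12.8 CPM in vehicle and 20.97 CPM at day 3. It rose by 0.80 ± 0.10 (edgeR adjusted p = 1.19e-05) without overlap. Immunity-related and guanylate-binding GTPases were among the rises, Iigp1 at 1.29 ± 0.23, Irgm1 at 0.65 ± 0.13 and Gbp3 at 0.72 ± 0.16. So were cytosolic RNA sensors, Ddx58 (RIG-I) at 0.59 ± 0.13 and the kinase Eif2ak2 (PKR) at 0.49 ± 0.12, and the transcription factor Irf7 at 0.93 ± 0.19. Stat2 (0.12), Irf1 (0.06), Irf9 (0.47), Ifitm3 (0.30) and Ifi27l2a (0.94) did not pass.

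Some interferon calls were lost when libraries were left out, for a reason that was not tested. Without the Ttr-rich libraries 9 of the 17 were called, the list median being 0.62, and fitting the 12 libraries alone left 12 of the 16 that were fitted, as Mx1 did not pass the filter there. Rsad2 and Mx1 were lost without the Ttr-rich libraries (adjusted p = 0.115 and 0.172), at log2 fold changes of 0.99 and 2.36. Leaving out day 3 library 6 gave the fewest, 12. Irf7 was lost without day 3 library 6 (adjusted p = 0.0552) and Parp14, an ADP-ribosyl transferase, without day 3 library 2 (0.0509). Ddx58 was lost without any of vehicle libraries 3 and 4 and day 3 libraries 1 and 6 (highest adjusted p = 0.0831). Rtp4, a chaperone of receptors, was lost without vehicle library 1, 4 or 6 or day 3 library 2, 5 or 6 (0.103). Eif2ak2 was lost without vehicle library 2, 3, 4 or 6 or day 3 library 1, 2, 5 or 6 (0.174). For Gbp3 the libraries were vehicle 1, 2, 3, 4 and 6 and day 3 1, 2 and 6 (0.15). All of these values are edgeR adjusted p-values.

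Antigen presentation and NF-kB genes had no call. Of 17 genes of MHC class I and II presentation, none was called (2 had an unadjusted p under 0.05) and the median was 0.17. B2m, the light chain of class I, was at medians of 48.8 and 57.5 CPM (log2 fold change 0.17 ± 0.09), the class I heavy chains H2-K1 and H2-D1 were at 0.09 and -0.01, and the invariant chain Cd74 at -0.10. Nlrc5, which switches on class I genes, was at 1.23 ± 0.35 (edgeR adjusted p = 0.165). Of 12 NF-kB factors and feedback genes none was called (4 had an unadjusted p under 0.05), Bcl3 having the largest value at 1.10 ± 0.31 and the feedback inhibitors Nfkbia and Tnfaip3 lying at -0.09 and -0.01.

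Pattern receptors of myeloid cells were among the rises. Of 18 Toll-like receptors and adaptors, 5 rose, none fell and 13 did not pass (median 0.55). Tlr2, which senses bacterial lipoproteins and endogenous ligands, was at 0.545 to 1.07 CPM in vehicle (median 0.777) and 1.92 to 4.28 CPM at day 3 (median 2.85). Its log2 fold change was 1.89 ± 0.29 (edgeR adjusted p = 0.000333), with no overlap. Cd180, a Toll-like receptor homologue, and Ly86, the protein it needs at the cell surface, rose by 1.76 ± 0.22 and 1.05 ± 0.12 on the log2 scale. Slc15a3, a peptide and histidine transporter of the endolysosome, rose by 1.78 ± 0.21 (edgeR adjusted p = 5.92e-06), from 0.689 to 1.74 CPM in vehicle (median 1.11) to between 3.27 and 4.00 CPM at day 3 (median 3.62). Cd14, the lipopolysaccharide co-receptor, rose by 0.93 ± 0.17. All 5 had day 3 libraries wholly above vehicle, and without the Ttr-rich libraries Cd14 alone of the 5 was not called (0.94, adjusted p = 0.0770). Tlr4 (0.50), Tlr7 (0.26), Tlr9 (-0.12) and Myd88 (0.19) did not pass.

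The TREM2-linked microglial programme also held rises. Of 22 measured, 10 rose, none fell and 12 did not pass (median 0.41, with 20 above 0), Ccl6 being on this list too. Among those that did not pass were Apoe (-0.01), Lpl (0.33), Cd9 (0.34), Gpnmb (0.34), Ctsb (0.09) and Fth1 (0.01), and Cst7 was not measured. Itgax, the integrin CD11c, was at 0.129 CPM in the lowest vehicle library, 0.412 at the median and 0.666 in the highest. At day 3 these values were 1.18, 1.46 and 1.66 CPM, wholly above vehicle, and the log2 fold change was 1.96 ± 0.35 (edgeR adjusted p = 0.00163). Clec7a, the beta-glucan receptor dectin, rose from 13 reads over the vehicle libraries to 113 (3.01 ± 0.58), and was not called without the Ttr-rich libraries (2.72, adjusted p = 0.109). Ch25h, which makes the oxysterol 25-hydroxycholesterol, rose from 17 to 170 reads (3.26 ± 0.38, edgeR adjusted p = 4.23e-06).

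The receptor and its partners had smaller fold changes. Trem2 itself was at 9.75 to 11.1 CPM in vehicle (median 10.1) and 12.3 to 16.6 CPM at day 3 (median 13.9), a log2 fold change of 0.48 ± 0.08 (edgeR adjusted p = 0.00101). The groups did not overlap. Its adaptor Tyrobp rose by 0.69 ± 0.12, the lysosomal glycoprotein Cd68 by 0.70 ± 0.12 and the protease Ctsz by 0.62 ± 0.08. Cd52, a small surface glycoprotein, rose by 1.25 ± 0.29, a call that ended without vehicle library 3, 5 or 6 or day 3 library 1, 2 or 6 (highest edgeR adjusted p = 0.134) and without the Ttr-rich libraries (0.465). Lgals3, a galectin of phagocytes, was wholly higher at day 3 but missed the threshold (1.39 ± 0.34, edgeR adjusted p = 0.0537), and none of 15 phagocytic receptors and ligands was called by edgeR (4 had an unadjusted p under 0.05, and DESeq2 called 1). Axl and Mertk, receptors for apoptotic cells, were at 0.09 and -0.08.

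Genes that mark microglia at rest rose in part. Of 18 homeostatic genes 4 rose and 14 did not pass, with 17 above 0 (median 0.16), and their summed level went from a median of 627 CPM in vehicle to 710 CPM at day 3. Olfml3, a secreted matrix protein, was at 14.2 to 16.4 CPM in vehicle (median 14.9) and 19.4 to 29.5 CPM at day 3 (median 24.1), with a log2 fold change of 0.68 ± 0.08 (edgeR adjusted p = 5.92e-06). Fcrls, an Fc receptor-like protein, rose by 0.70 ± 0.11. Neither gene had overlapping groups, and Cx3cr1 is on this list too. P2ry12 (0.03), Tmem119 (0.06), Sall1 (0.08) and Aif1 (0.11 ± 0.10) did not pass.

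Signalling through Fc receptors and SYK followed the same direction. Of 16 genes measured 4 rose and all 16 were above 0 (median 0.44), but none was called without the Ttr-rich libraries, where the median was 0.44. The phosphatase Ptpn6 rose by 0.87 ± 0.15, the membrane-bending protein Bin2 by 0.73 ± 0.12, the exchange factor Vav1 by 0.66 ± 0.13 and the common gamma chain Fcer1g by 0.62 ± 0.11. In the Ttr-poor libraries their values were 0.78, 0.71, 0.62 and 0.51 (edgeR adjusted p = 0.136, 0.0513, 0.276 and 0.164). The myeloid transcription factor Spi1 (0.69) and Syk (0.25) did not pass.

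Complement and lysosomal genes were also among the rises. C4b (ENSMUSG00000073418.5), which tags surfaces for removal, was at 15.2 to 22.3 CPM in vehicle (median 18.3) and 33.1 to 38.4 CPM at day 3 (median 35.5). The log2 fold change was 0.93 ± 0.09 (edgeR adjusted p = 5.90e-08), and the day 3 libraries were both wholly higher and close together. Of 18 complement genes 4 rose, none fell and 14 did not pass (median 0.29). The other calls, C1qb (0.41 ± 0.08), C1qc (0.50 ± 0.12) and Itgb2 (0.68 ± 0.14), ended without day 3 library 1, where C4b was the 1 gene called. C1qc also ended without vehicle library 1, 3, 4, 5 or 6 or day 3 library 2, 5 or 6, and Itgb2 without vehicle library 6 (highest edgeR adjusted p = 0.0528 for C1qb, 0.239 for C1qc and 0.0639 for Itgb2). Without vehicle library 2, 7 complement genes were called. Among the Ttr-poor libraries C4b and C1qb were called. C3 (0.64) and the anaphylatoxin receptors C3ar1 (1.01) and C5ar1 (1.12) did not pass.

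Of 22 lysosomal proteases and membrane proteins 6 rose and 21 were above 0 (median 0.17), among them Ctsd, the main aspartic protease, at 0.30 ± 0.05 (edgeR adjusted p = 0.00234), from a median of 129 to 157 CPM. Grn, the progranulin gene, rose by 0.25 ± 0.05 and the asparaginyl protease Lgmn by 0.20 ± 0.04, among the smallest changes called. The call of Grn ended without vehicle library 4, 5 or 6 or day 3 library 1, and that of Lgmn without vehicle library 3, 4 or 6 or day 3 library 1, 2 or 6 (highest edgeR adjusted p = 0.0946 and 0.117). Cd68 and Ctsz are on this list too. Between 4 and 8 of the list were called when 1 library was left out.

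**Figure D3:**
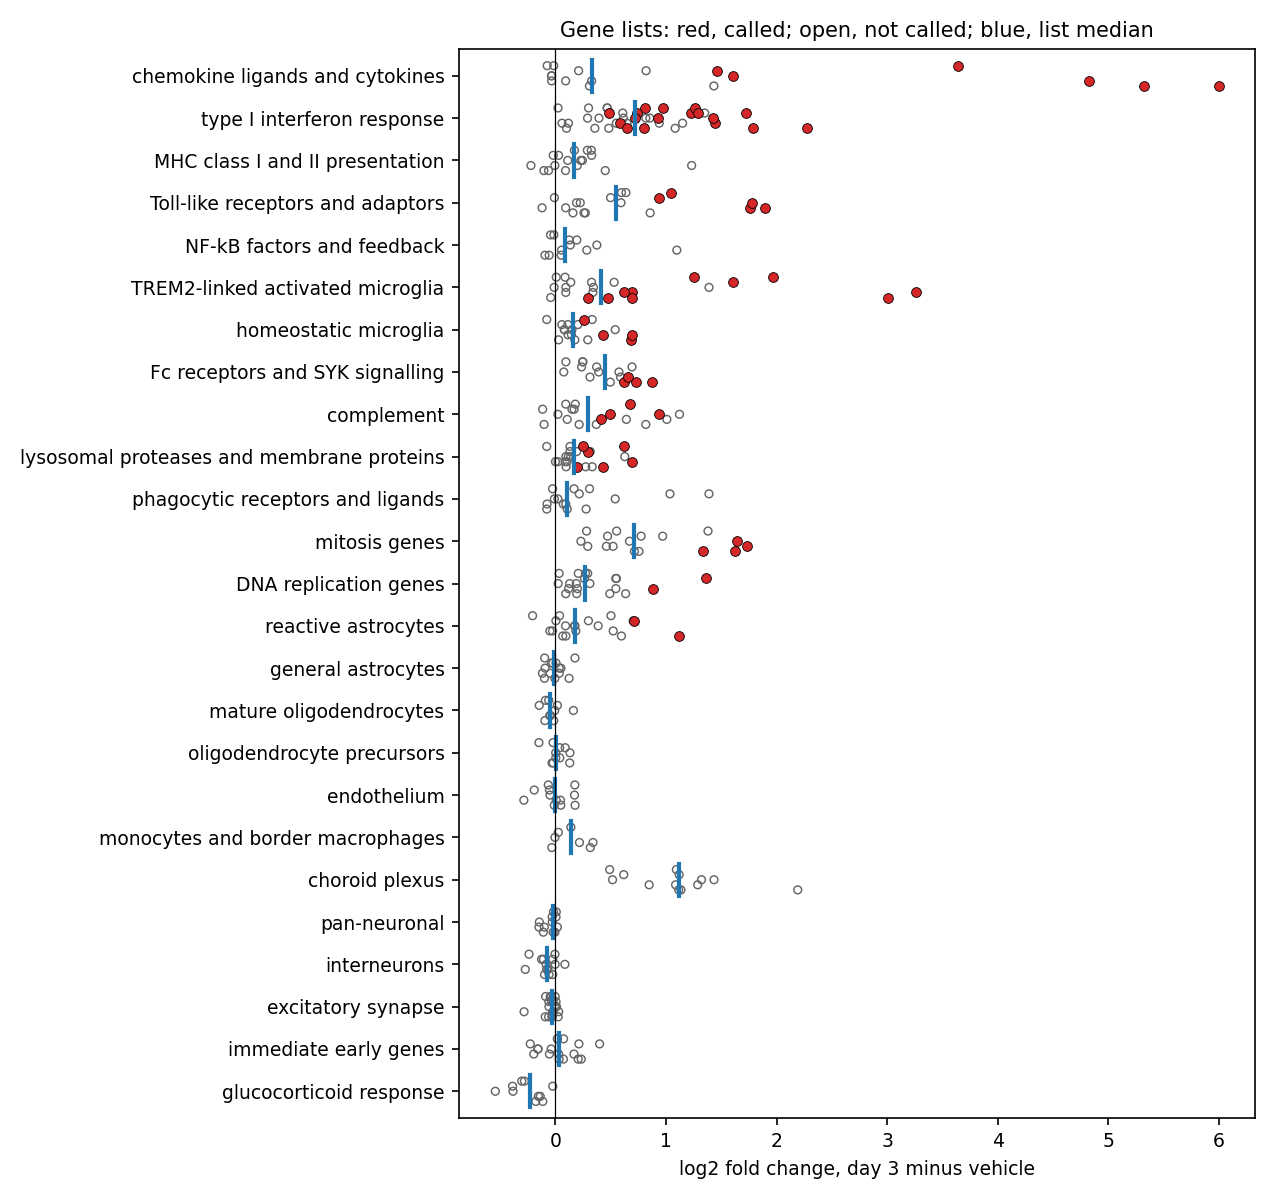
Log2 fold change of day 3 minus vehicle (horizontal axis) for the measured members of 25 gene lists (rows). Filled red points were called, open points were not, and blue bars are list medians. All 39 interferon, 17 mitosis, 20 replication and 13 choroid plexus genes lie above 0 and all 10 glucocorticoid genes below, while neuronal, oligodendrocyte and endothelial lists centre near 0.

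Cell division genes were among the rises. Of 17 mitosis genes 4 rose, and all 17 log2 fold changes were above 0 (median 0.72). Mki67 (ENSMUSG00000031004.9), present in cycling nuclei, was at 1.22 CPM in the lowest vehicle library, 1.71 at the median and 2.07 in the highest. At day 3 the values were 4.15, 4.82 and 6.99 CPM, wholly above vehicle, and the log2 fold change was 1.62 ± 0.21 (edgeR adjusted p = 2.42e-05). Top2a, which untangles replicated DNA, rose by 1.73 ± 0.28 without overlap. Bub1b, a spindle checkpoint kinase, rose by 1.64 ± 0.35 and Ect2, needed for cytokinesis, by 1.34 ± 0.28. Both were lost without day 3 library 1, and Bub1b also without vehicle library 3 or 6 or day 3 library 2 (highest edgeR adjusted p = 0.0959 for Bub1b and 0.0614 for Ect2), which left 2 called. Neither was called in the Ttr-poor libraries (adjusted p = 0.398 and 0.174). Ccnb1 (1.38), Ccna2 (0.97) and Plk1 (0.28) did not pass.

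Of 20 DNA replication genes 2 rose and all 20 were above 0 (median 0.27). Mcm3, part of the replicative helicase, went from a median of 2.56 to 4.52 CPM (0.88 ± 0.15, edgeR adjusted p = 0.000884), and Uhrf1, which carries DNA methylation through replication, from 0.908 to 2.44 CPM (1.36 ± 0.26, adjusted p = 0.00381). The groups overlapped for both. Without day 3 library 5, 4 genes of this list were called. The helicase partners Mcm2 (0.49), Mcm4 (0.19) and Mcm6 (0.27) and the clamp Pcna (0.20) did not pass.

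Few astrocyte genes rose. Gfap (ENSMUSG00000020932.15) was at 161 CPM in the lowest vehicle library, 188 at the median and 224 in the highest. At day 3 the lowest library held 348 CPM, the median was 394 and the highest 475. The groups were far apart, and the log2 fold change of 1.12 ± 0.08 carried the smallest adjusted p of the comparison (edgeR, 1.77e-10). Of 19 reactive astrocyte genes only Gfap and Aspg were called, with a median of 0.18. Aspg, an asparaginase, rose by 0.71 ± 0.16 and was lost without vehicle library 1, 3 or 4 or day 3 library 1 or 6 (highest edgeR adjusted p = 0.104). Vim (0.18), Serpina3n (0.18), Cd44 (0.04) and Stat3 (0.17) did not pass. General astrocyte markers had no call among 14 (2 had an unadjusted p under 0.05), and their summed level was 6661 to 7820 CPM in vehicle and 6740 to 7627 CPM at day 3. Slc14a1, the urea transporter found in astrocytes, rose by 0.46 ± 0.09 and missed the threshold in the Ttr-poor libraries at a log2 fold change of 0.36 (adjusted p = 0.541).

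Of 13 axon injury genes measured, 2 rose. Ecel1 (ENSMUSG00000026247.14), a neuronal membrane protease induced by nerve damage, was at 8.49 CPM in the lowest vehicle library, 14.1 at the median and 17.7 in the highest. At day 3 it stood at 22.02, 28.6 and 30.5 CPM. The groups did not overlap (1.04 ± 0.16, edgeR adjusted p = 0.000462). Atf3, a stress-induced transcription factor, went from a median of 0.466 to 1.44 CPM (1.54 ± 0.28, adjusted p = 0.00265) and was not called in the Ttr-poor libraries (1.56, adjusted p = 0.0913). The other 11, among them Gap43 (0.03), Sox11 (0.03), Jun (0.07) and Gadd45a (0.01), did not pass. Of 9 NRF2 targets, Hmox1, the haem-degrading enzyme, rose by 0.62 ± 0.12, and missed the threshold in the Ttr-poor libraries at a log2 fold change of 0.66 (adjusted p = 0.0554). None of 21 integrated stress, 12 unfolded protein, 11 heat shock, 15 p53 target or 17 cell death and inflammasome genes was called by edgeR (5, 0, 0, 2 and 3 at an unadjusted p under 0.05). Nor was any of 15 cholesterol synthesis or 20 respiratory chain genes (3 and 0). The pro-apoptotic p53 target Bbc3 was wholly higher at day 3 but did not pass (0.32 ± 0.09, edgeR adjusted p = 0.133), and neither did the inflammasome genes Nlrp3 (0.86 ± 0.23, adjusted p = 0.0943) and Pycard (0.51 ± 0.20).

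Outside the lists 39 genes rose. They belong to no fixed group, and no theme is read from them. Capg, which caps actin filaments, went from a median of 1.23 to 3.72 CPM (1.33 ± 0.20, edgeR adjusted p = 0.000188) without overlap. Lcp1, an actin-bundling protein, rose by 0.62 ± 0.09, Hcls1, a cortactin relative, by 0.89 ± 0.14, Arpc1b, of the ARP complex, by 0.54 ± 0.10, Msn, a membrane linker, by 0.40 ± 0.07, and Tagln2 by 0.53 ± 0.10. Of these, Arpc1b and Tagln2 were not called in the Ttr-poor libraries (adjusted p = 0.241 and 0.109). Mpeg1, a pore-forming protein of macrophages, rose by 0.49 ± 0.08 from a median of 25.1 to 35.1 CPM, and also missed the threshold in those libraries (0.0626). The ADP-ribosylation gene Parp9 (0.96 ± 0.18), the large E3 ligase Rnf213 (0.61 ± 0.11), both induced by interferon, and hexokinase Hk2 (0.56 ± 0.12) rose and were likewise not called there (0.163, 0.0789 and 0.293). Fgfrl1, a receptor-like protein that binds fibroblast growth factors, rose by 0.40 ± 0.08 (0.205 there).

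Neuronal genes lay close to vehicle. None of 12 pan-neuronal, 14 superficial entorhinal and hippocampal, 12 deep cortical, 14 interneuron, 21 excitatory synapse or 13 inhibitory synapse genes was called by edgeR, against 3, 1, 1, 3, 2 and 0 at an unadjusted p under 0.05, and DESeq2 and limma voom called none either. Rbfox3, the nuclear marker NeuN, was at medians of 316 and 320 CPM (log2 fold change -0.02 ± 0.03), and Snap25, a synaptic vesicle fusion protein, at 2053 and 1915 CPM (-0.10 ± 0.03, edgeR adjusted p = 0.477). Interneuron genes were below 0 in 13 of 14 cases, at a median of -0.07. Pvalb had -0.24 ± 0.10 and Sst -0.12 ± 0.05. Immediate early genes had no call among 17 and none at an unadjusted p under 0.05, but 3 were called higher and 1 lower without the filter on low counts. Late activity-regulated genes had no call among 14 (2 at an unadjusted p under 0.05), and 2 were lower without that filter. Fos ranged from 17.9 to 57.05 CPM in vehicle and from 19.6 to 63.9 CPM at day 3, and Arc from 108 to 451 CPM and from 114 to 397 CPM, so that differences of ordinary size were not detectable in these genes.

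All 10 glucocorticoid response genes had log2 fold changes below 0 (median -0.23), with none called and 5 at an unadjusted p under 0.05. Tsc22d3, an anti-inflammatory target of the hormone, was at a median of 58.5 CPM in vehicle and 43.2 CPM at day 3 (-0.38 ± 0.12, edgeR adjusted p = 0.221). When the 12 libraries were fitted alone, 1 gene of the list was called lower, and 3 were without the filter on low counts.

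Marker genes of other cells were measured alongside. Oligodendrocytes (10 genes), their precursors (11), endothelium (12) and pericytes and fibroblasts (12) had no call by edgeR, with 0, 0, 0 and 1 at an unadjusted p under 0.05. Monocyte and border macrophage markers summed to 23.9 to 36.3 CPM in vehicle (median 29.4) and 28.5 to 33.04 CPM at day 3 (median 29.1), with 7 of 13 tested, none called and S100a4 at 0 reads in all 12 libraries. Ccr2, the receptor that marks inflammatory monocytes, had 43 reads over the vehicle libraries and 46 at day 3. Neutrophil markers had 30 and 40 reads in all over 8 genes, none of which reached the read minimum. Lymphocyte markers had 417 and 500 reads over 13 genes, with Cd3e at 5 and 2 and Cd8a at 1 and 1. Haemoglobin and other red cell genes were above 0 in 5 of 5 cases without a call (median 0.36), summing to 65.7 to 160 CPM in vehicle and 93.5 to 169 CPM at day 3, and the part of blood in the results above was not tested.

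The 6 day 3 libraries differed in the strength of the response. The median log2 difference of the 101 genes from the vehicle mean was 0.91, 0.83, 0.49, 0.61, 0.59 and 0.80 in libraries 1 to 6. Each CPM had 0.5 added before the logarithm, so differences of low genes, chemokines among them, come out smaller than their fold changes. Roles are therefore not compared by size. Library 1 was highest over all and library 3 lowest. The order changed with the role of the genes. Called mitosis genes were highest in library 1 (1.58) and lowest in library 4 (0.85), and called interferon genes highest in library 6 (1.19) and lowest in library 3 (0.45). The called chemokines were at least 1.51 in each of the 6. The Ttr-rich libraries 2, 3 and 6 included both strong and weak responders. These are descriptions, as the 101 genes were chosen on the same libraries.

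**Figure D4:**
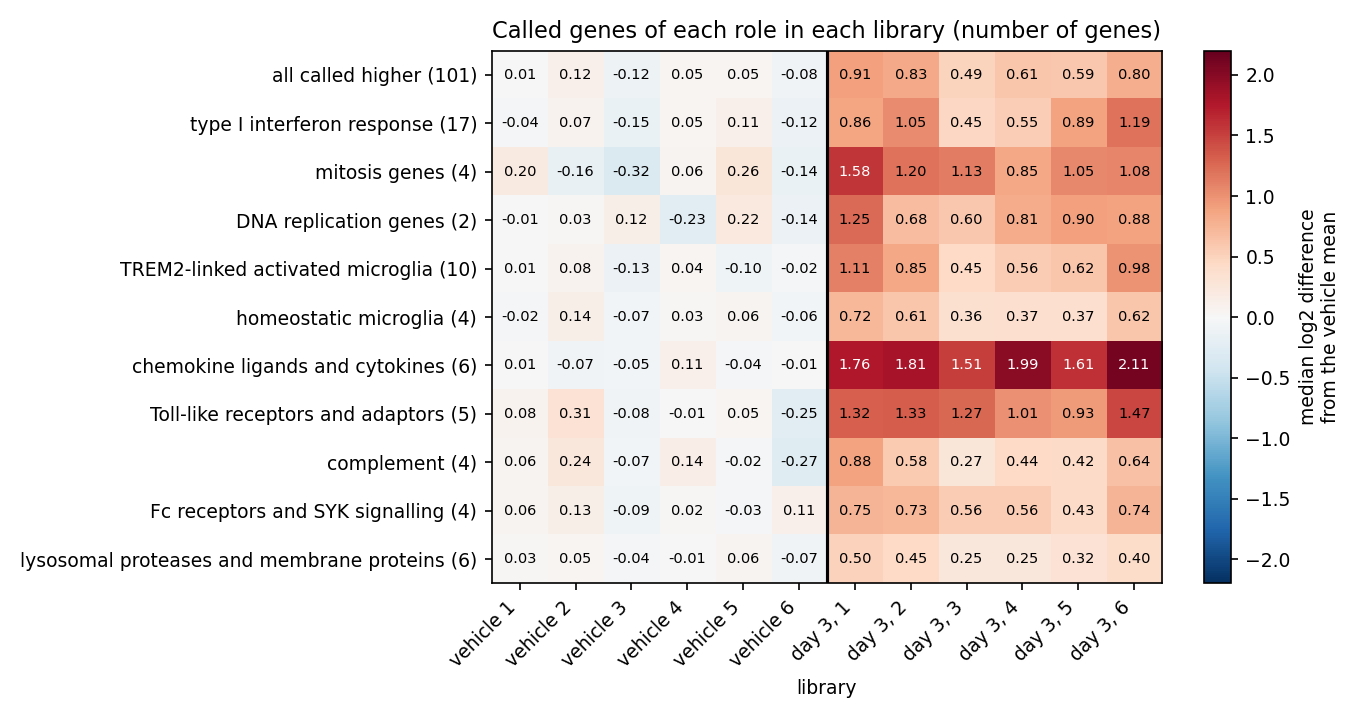
Median log2 difference from the vehicle mean of the called genes of each role (rows, number of genes in brackets) in the 6 vehicle and 6 day 3 libraries (columns), in colour and digits. Each CPM had 0.5 added before the logarithm, which makes differences of low genes smaller. Over all 101 called rises the day 3 libraries range from 0.49 in library 3 to 0.91 in library 1, and the chemokines are at 1.51 or more in each.

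The comparison did not differ detectably by sex. A test of the sex by day interaction called no gene (smallest edgeR adjusted p = 1), with 738 genes (4.40%) at an unadjusted p under 0.05, 4 of them among the 103. Fitted in each sex alone, the 101 genes had median log2 fold changes of 0.89 in females and 0.89 in males, and 32 and 11 of the 103 were called with so few libraries. The animal numbers in the labels were cut into 3 ranges, a choice made here and not given by the labels. The middle range holds only 1 day 3 library, library 3. Within these ranges the median log2 difference of the 101 genes, with 0.5 CPM added to each value, was 0.80, 0.56 and 0.71. With the range as a factor 95 of the 103 genes were called. The genes were chosen on these same libraries, so their medians by sex and by range are descriptions and support nothing.

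Days 1 and 2 were measured against the same vehicle libraries, so their values share that reference and are given side by side. Of the 101 genes that rose at day 3, 1 was called at day 1, C4b, and 11 at day 2. Over all genes tested, 0.0656% were called at day 1 and 0.0656% at day 2, in either direction. The median log2 fold change of the 101 genes was 0.17 at day 1 and 0.34 at day 2. The genes were chosen for being high at day 3 against those vehicle libraries, so nothing is read from these counts and medians. Gfap stood at 0.24, 0.51 and 1.12 on days 1, 2 and 3. Ccl3 was at 2.62, 4.02 and 5.32, Cd180 at 0.67, 1.36 and 1.76, and Ecel1 at 0.28, 0.88 and 1.04, with the day 2 value called in each. Other genes had no call before day 3. Ccl12 was at 0.50, 0.53 and 3.64, Ifit3 at 0.14, 0.15 and 1.23, and Itgax at -0.07, 0.22 and 1.96. EYFP was at -0.07, -0.17 and -0.89.

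**Figure D5:**
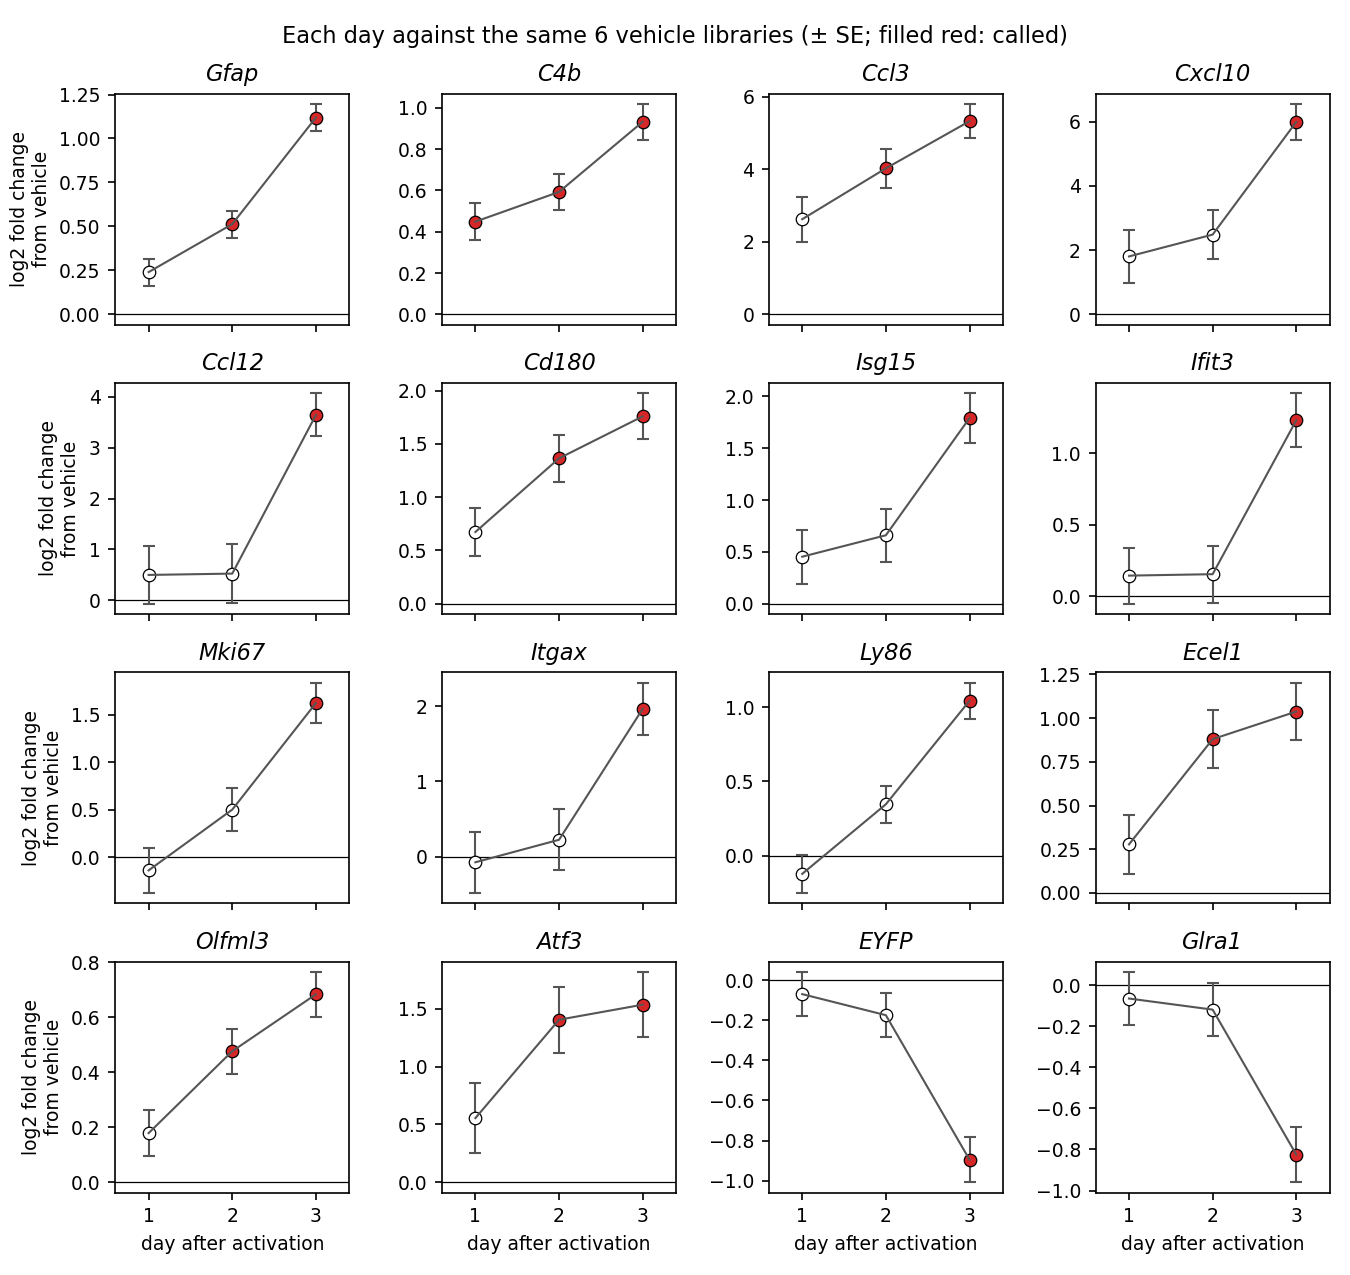
Log2 fold change from vehicle ± SE (vertical axes) on days 1, 2 and 3 (horizontal axis) for 16 genes, with called values filled red. Gfap, Ccl3, Cd180, Ecel1, C4b, Olfml3 and Atf3 are called at day 2 and day 3, while Ccl12, Ifit3, Itgax and Mki67 are called at day 3 alone, as are the falls of EYFP and Glra1.

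Day 3 was also tested against the earlier days directly. The same day 3 libraries enter each comparison, so overlap with the 101 genes was favoured in advance and is a description. Against day 2, 20 genes were higher (0.119%), all of them among the 101, and EYFP and Glra1 were lower (0.0119%). Cxcl10 was higher by 3.51 ± 0.42, Ccl12 by 3.11 ± 0.40, Ch25h by 1.89 ± 0.32, Itgax by 1.74 ± 0.34, Ifit3 by 1.08 ± 0.19, Mki67 by 1.12 ± 0.21 and Gfap by 0.61 ± 0.08 on the log2 scale. EYFP was lower, at -0.72 ± 0.11, and Glra1 at -0.71 ± 0.13. Without day 3 library 1, 9 genes were higher, and without the Ttr-rich libraries 4. Without day 3 library 1 or 6, 1 gene was lower. Against day 1, 101 genes were higher (0.602%), of which 68 were among the 101 that rose against vehicle, and 8 were lower (0.0477%). Without day 3 library 6 these numbers were 40 and 4, and without the Ttr-rich libraries 34 and 13. Egr3, an activity-induced transcription factor that was lower than vehicle at day 1 (-0.74), stood at -0.23 ± 0.12 at day 3 and was not called (edgeR adjusted p = 0.928).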

How the data were processed

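RNA was measured by bulk sequencing of dissected entorhinal cortex. The deposited table holds whole-number read counts per gene for 24 libraries, not normalized by the authors, and all columns were used. Per the submitters' processing notes, fastp 0.23.1, STAR 2.7.9a, DESeq2 1.32.0 and the mm39 build were used. How reads were counted, with which annotation and strand setting, is not given in the sources used here, so overlapping or antisense genes cannot be separated. No gene coordinates are given, because the annotation at hand was of another build. Symbols matched 52083 of 55416 Ensembl identifiers. RefSeq promoter windows (GRCm38.p6) matched 79 of the 101 genes that rose.

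The test was the two-sided quasi-likelihood test of edgeR 4.0.16 in R 4.3.3, with trimmed mean of M values factors, the filterByExpr filter (minimum count 10, minimum total 15), and a model of group and sex over all 24 libraries, which share an estimate of the spread (biological coefficient of variation 8.51%). The groups compared were those of the treatment label. When the step was tested on simulated data of 16550 genes for changes between day 3 and vehicle, 30% of changes were recovered at 1.2-fold, 76% at 1.5-fold, 90% at 2-fold and 98% at 4-fold. The simulation gave all genes the same spread and no choroid plexus or sex differences. These shares may therefore be too high for real genes with a wider spread. Library totals of 16.6 to 23.4 M reads limit the precision of low genes. Genes were named if they were called and among the 15 largest in a direction with a mean log2 CPM of at least 1, among the 10 smallest p-values, called members of the 47 lists or the 3 members of smallest p of a list without calls, on a short fixed list of markers, or called outside the lists at that mean level. Other list members are named as values that did not pass, and a few are not reported here. Members, lists and tests were chosen with earlier results of these data known. Alternatives were other normalization factors and filters, DESeq2 1.42.0, limma voom (limma 3.58.1), the 12 libraries alone, no sex term, animal number range as a factor, each sex, a 1.2-fold threshold, and leaving out each library or, added after the data were seen, all libraries above 100 CPM of Ttr.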

Additional observations from a re-analysis of the deposited data

Results flagged for a closer look

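Among 72 groups of 6 libraries looked at (36 genes, day 3 and vehicle), 7 had 1 library far from the others by Dixon's ratio. Chance flags about 1 in 20 groups. Ttr, from the choroid plexus, was at 1165 CPM in vehicle library 5, against 19.02 in the next highest. Calb1, a calcium-binding protein of superficial neurons, was at 131 CPM in vehicle library 1, against 153 in the next lowest. Day 3 library 3 held the lowest Isg15, at 1.44 CPM, the next being 3.34. Day 3 library 4 held the lowest Ecel1, 22.02 CPM, below 28.1 in the next. Day 3 library 5 held the lowest Ccl4, 0.736 CPM. Day 3 library 6 was the highest of its group for Ccl6 (4.73 CPM against 3.49) and for the transcript AU020206 (4.02 CPM against 3.07).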

How the results depend on the processing

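None of the 103 called genes changed direction in any alternative that fitted it or in the 12 fits without 1 library. Of 14 alternatives, 90 genes were fitted in all and 13 low genes in 12 or 13, as a filter of 1 CPM in 6 libraries or the filter on the 12 libraries alone removed them. Genes not fitted are left out of the next 2 counts. In all 14 alternatives 8 genes were called, C4b, Ccl3, Cxcl10, Ecel1, EYFP, Gfap, Lgals3bp and Slc15a3, and 43 were called in all but the fits of 1 sex and of a 1.2-fold threshold. Fitting the 12 libraries alone left 82 called of the 98 fitted, and 65 were called in every fit without 1 library. The counts moved more. For day 3 against vehicle, day 2 and day 1, removing the filter on low counts gave 177, 60 and 229 higher and 40, 19 and 66 lower. DESeq2 gave 4 lower against vehicle, 34 higher against day 2 and 21 lower against day 1. Females alone gave 34, 0 and 9 higher and 1, 0 and 1 lower. Males alone gave 10, 2 and 11 higher, with 1 lower against day 2 and 2 against day 1. A 1.2-fold threshold gave 51 higher against vehicle. Without the Ttr-rich libraries 47, 4 and 34 were higher, and 13 lower against day 1. Fits of fewer libraries hold less information, and beyond that the cause was not tested. Leaving out 1 library gave 70 to 108 higher and 2 to 3 lower against vehicle, 9 to 24 and 1 to 2 against day 2, and 40 to 101 and 4 to 12 against day 1. Among lists with no call, 1 gene was called in MHC presentation without vehicle library 5, in cell death and inflammasome genes without vehicle library 2 or day 3 library 5, in p53 targets (lower) without day 3 library 5, and in phagocytic receptors without vehicle library 2 or day 3 library 4 or 5.

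Reversals were confined to uncalled genes near 0 or with a wide spread. Among males alone Arc was at -0.39, Fos at -0.27, Klk8 at 0.34 and Reln at 0.006. Among females alone Calb1 was at -0.071, Rbfox3 at 0.03 and Ttr at -0.38. Without the Ttr-rich libraries Arc was at -0.42, Fos at -0.21, Klk8 at 0.01, Rbfox3 at 0.003 and Reln at 0.00. With 1 library left out, values ran from -0.14 to 0.331 for Arc, -0.003 to 0.078 for Calb1, -0.194 to 0.037 for Klk8, -0.033 to 0.006 for Rbfox3 and -0.048 to 0.009 for Reln.

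No paired analysis was possible because the labels give the libraries no replicate numbers shared between groups.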
